A study of Mus musculus with 6 samples.

Results

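The 10 genes described here serve MHC class I antigen processing: the heavy chains H2-K1 and H2-D1, the light chain B2m, the peptide transporter subunits Tap1 and Tap2, the loading chaperone Tapbp, the immunoproteasome subunits Psmb8 and Psmb9, and the proteasome activator subunits Psme1 and Psme2. They were taken by name as a list, and all 10 were found among the 16557 genes of the UMI tables. The tables hold single-cell RNA-seq of 6 mouse rhabdoid tumors, each from 1 animal on a C57BL/6 background in which tamoxifen (50 mg/kg, once, given to the pregnant dam at day 6.5 post coitum) had induced Cre to delete the floxed alleles of Smarcb1, the SWI/SNF subunit whose loss defines this tumor. The 3 MYC spinal tumors (MYC spinal 1, 2 and 3, from mice aged 19, 26 and 17 weeks) all came from Rosa26-creERT2::Smarcb1 fl/fl mice, whose Cre is under a ubiquitous promoter. Of the 3 tumors labelled MYC extracranial (eRT), eRT 1 (gland, 17 weeks) came from that model, and eRT 2 and eRT 3 (jaw and shoulder, 29 and 22 weeks) came from Sox2-creERT2::Smarcb1 fl/fl mice, whose Cre is under the Sox2 promoter. Tumor type and mouse model are therefore partly confounded. The cells had been sorted as viable after lysis of red cells. Values per tumor are given throughout in the order MYC spinal 1, 2 and 3, then eRT 1, 2 and 3, as counts per 1000000 UMIs of that kind of cell (CPM), which is not a level per cell.

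MHC class I molecules show short peptides from proteins made inside a cell to CD8 T cells, while NK cells respond to their absence. Proteasomes cut the peptides, and the Tap1 and Tap2 transporter moves them into the endoplasmic reticulum. Tapbp holds an empty heavy chain at the transporter until a peptide fits, and the chain normally leaves for the surface with B2m. Nearly all nucleated cells express the pathway. Interferon-gamma raises it, and under interferon Psmb8, Psmb9 and Psmb10 replace the catalytic subunits Psmb5, Psmb6 and Psmb7 in newly made proteasomes.

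In these tumors, H2-K1, H2-D1, B2m, Tap1, Psmb8 and Psmb9 were lower in tumor cells than in the immune-like cells of the same tumor. The estimates, scaled with TMM factors, ran from 2.22 to 3.81 times, while Tapbp, Psme1, Psme2 and Tap2 did not pass the test. The 6 calls among 10 genes stand against 16.8% of all 12201 tested genes called lower in tumor cells (edgeR's quasi-likelihood test over all genes, tumor as a block, Benjamini-Hochberg adjusted p under 0.05). None of the 10 was called higher (15.4% of all genes were, and 32.2% were called in either direction), and their median log2 difference was -1.22 against -0.03 over all tested genes (-0.94 against 0.21 without TMM factors). Without eRT 3 the count was 3, and with the tumors not used as a block it was 0. On library sizes without TMM factors it was 4, with H2-K1 and Tap1 not called. The tumors differed widely among themselves, and in MYC spinal 3 the tumor cells held more H2-K1, H2-D1 and B2m than its immune-like cells.

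H2-K1, H2-D1, Tap1, Tap2, Tapbp, Psmb8 and Psmb9 lie in the major histocompatibility complex on chromosome 17, B2m on chromosome 2 and Psme1 and Psme2 on chromosome 14. The promoters of 5 of the genes called lower are shown, since interferon and NF-kappa B are known to act on class I genes through short elements near the start site. Each is the 250 bases before the start site in RefSeq (GRCm38.p6), read 5′ to 3′ on the gene's own strand. Capitals mark the motifs searched on both strands: the class I kappa B site (the run of capitals in H2-K1 and H2-D1 that opens with GGGG), the interferon-stimulated response element core (the longer run in B2m, GAAA on either side of any 2 bases), the gamma-activated sequence TTCNNNGAA and the Y box core CCAAT, which reads ATTGG on the other strand.
H2-K1, chr17:34000348-34000597, minus strand: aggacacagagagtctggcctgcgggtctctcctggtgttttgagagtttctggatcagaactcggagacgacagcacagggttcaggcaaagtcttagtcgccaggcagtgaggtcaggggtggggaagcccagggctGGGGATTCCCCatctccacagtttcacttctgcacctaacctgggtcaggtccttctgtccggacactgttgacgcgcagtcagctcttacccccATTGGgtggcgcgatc
H2-D1, chr17:35262844-35263093, plus strand: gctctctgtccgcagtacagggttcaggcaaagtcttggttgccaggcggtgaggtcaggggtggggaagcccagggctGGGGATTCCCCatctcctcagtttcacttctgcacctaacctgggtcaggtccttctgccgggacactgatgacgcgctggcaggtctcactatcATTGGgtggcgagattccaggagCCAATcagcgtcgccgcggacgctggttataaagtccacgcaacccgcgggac
B2m, chr2:122147437-122147686, plus strand: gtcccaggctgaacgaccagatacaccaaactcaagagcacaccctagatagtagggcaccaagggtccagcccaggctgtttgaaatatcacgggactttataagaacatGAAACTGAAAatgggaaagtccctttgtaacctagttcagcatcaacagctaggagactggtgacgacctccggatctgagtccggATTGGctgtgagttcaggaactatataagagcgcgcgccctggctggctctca
Psmb8, chr17:34197945-34198194, plus strand: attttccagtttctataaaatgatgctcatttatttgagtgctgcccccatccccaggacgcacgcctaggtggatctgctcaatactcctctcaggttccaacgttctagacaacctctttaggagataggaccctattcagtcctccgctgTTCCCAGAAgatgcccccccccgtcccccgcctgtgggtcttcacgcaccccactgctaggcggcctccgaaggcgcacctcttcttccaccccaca
Tap1, chr17:34187306-34187555, plus strand: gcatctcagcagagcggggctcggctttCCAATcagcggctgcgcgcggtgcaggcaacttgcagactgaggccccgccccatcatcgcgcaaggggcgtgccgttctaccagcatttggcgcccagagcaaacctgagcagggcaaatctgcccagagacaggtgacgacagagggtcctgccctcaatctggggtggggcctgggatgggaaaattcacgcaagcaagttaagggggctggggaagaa

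Of the 10 genes, 9 were matched to a RefSeq promoter, and Tap2 was not. H2-K1 has a second start, not shown, whose window holds the same motifs and a further Y box core at bases 6 to 2 before that start. The kappa B site was found only in H2-K1 and H2-D1 among them, at bases 111 to 101 before the start of H2-K1 and 171 to 161 before that of H2-D1, and in 0.0304% of all 32851 promoter windows. The H2-K1 and H2-D1 windows were identical at 166 of the 190 bases that align, which is 87.4%. The response element core was found in B2m alone (2.98% of all windows) and the gamma-activated sequence in Psmb8 alone (7.02%). The Y box core was in 6 of the 9 (33.8% of all windows), H2-K1, H2-D1, B2m, Tap1, Tapbp and Psmb9. Tap1 and Psmb9 start 226 bases apart on opposite strands, so that the Tap1 sequence printed above covers most of the Psmb9 window too. Their Y box core is the same site read on opposite strands, and it was counted for both genes. These matches describe letters in a window, and no binding was measured here. Variants of the 4 patterns were not searched. An unmarked window, as those of H2-K1 and H2-D1 for the response element, may still hold a variant. Psme1 and Psme2 held none of the 4 motifs.

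After filtering, 22163 cells were kept, 1469 to 6740 per tumor, with 3841706 to 26184224 UMIs per tumor. Tumor cells were clusters with less than 0.25 of the Smarcb1 UMIs that their depth called for. The 3 such clusters of each tumor type held 0.0243 to 0.118 of the expected Smarcb1, and every other cluster at least 0.323. This gave 103, 15 and 1718 tumor cells in MYC spinal 1, 2 and 3 and 69, 200 and 619 in eRT 1, 2 and 3. The low Smarcb1 was used to choose them and is no result. Immune-like cells numbered 1344 to 5420 per tumor and were named from marker genes after clustering without the 10 genes. Left unnamed, and so out of the immune-like pool, were 1669 cells of the MYC spinal tumors and 1180 of the eRT. Of these, 1333 were in MYC spinal 3 and 510 in eRT 1. RNA from immune cells was present in tumor-cell clusters: the summed level of 10 general immune markers there was 1.1 to 12.3% of that in the immune-like cells of the same tumor, against 26.4 to 126% for the summed 10 class I genes, and Ptprc, the CD45 gene, had a UMI in 0 to 2.9% of tumor cells thinned to 1000 UMIs. Single markers ranged from 0% (Laptm5 in MYC spinal 2) to 53.5% (S100a9 in eRT 1) of the immune-like level. The part of this immune-cell RNA in the results below was not tested.

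The heavy chains bind the peptide itself, and H2-K1 carried 885, 134 and 1258 CPM in the tumor cells of MYC spinal 1, 2 and 3 and 852, 206 and 121 in those of eRT 1, 2 and 3. In the immune-like cells it stood at 2512, 342, 617, 885, 1070 and 420. Tumor cells were lower in 5 of 6 tumors, only narrowly so in eRT 1 (96.3% of the immune-like level), and 204% of it in MYC spinal 3, so that the groups overlap. The paired difference was -1.29 on the log2 scale (SE 0.436, adjusted p = 0.0437 by edgeR, 6 tumors). The call was lost when MYC spinal 1, MYC spinal 2, eRT 2 or eRT 3 was left out, with adjusted p = 0.0947, 0.118, 0.122 and 0.125 by edgeR, and without TMM factors (0.0971).

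H2-D1 ran in parallel, with 1861, 313, 1929, 1718, 397 and 329 CPM in tumor cells against 5120, 590, 1582, 2680, 2187 and 1115 in immune-like cells. Only in MYC spinal 3 did the tumor cells lie above (122% of the immune-like level). The difference was -1.45 (SE 0.339, edgeR adjusted p = 0.0077). H2-K1 and H2-D1 belong to one multigene family, and whether reads were split between them was not tested.

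B2m, the light chain of class I molecules, was the most abundant of the 10 in every tumor. Its tumor-cell levels were 3209, 1676, 5103, 3158, 1418 and 1080 CPM and its immune-like levels 8147, 1869, 4081, 4935, 4925 and 3164. The tumor cells of MYC spinal 3 again stood above their immune-like cells (125%), those of MYC spinal 2 close below (89.7%), and those of eRT 2 and eRT 3 at 28.8 and 34.1%. The difference was -1.15 (SE 0.304, edgeR adjusted p = 0.0144), and it missed the threshold without eRT 3 (adjusted p = 0.0576).

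**Figure D1:**
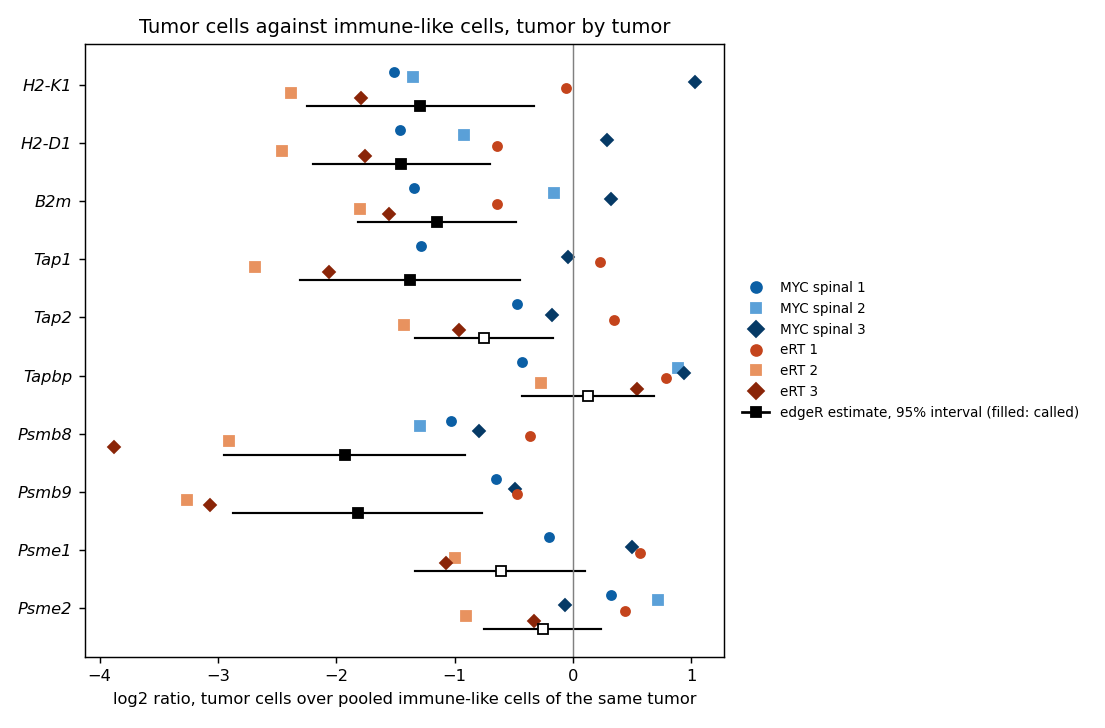
Log2 ratio of CPM in tumor cells over pooled immune-like cells of the same tumor (x axis) for each gene (y axis), where coloured points are the 6 tumors, left out where the tumor cells had 3 UMIs or fewer, and black squares with bars are the edgeR estimates with 95% intervals, filled where called. The points of MYC spinal 3 lie right of 0 for H2-K1, H2-D1 and B2m, and all points of Psmb8 and Psmb9 lie left of it.

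The transporter subunits Tap1 and Tap2 pump peptides across the membrane of the endoplasmic reticulum as a pair. Tap1 had 87.7, 0, 42.7, 80.7, 13 and 8.71 CPM in tumor cells and 213, 38.5, 44, 68.6, 83.7 and 36.4 in immune-like cells. The 0 in MYC spinal 2 rests on 15 cells, where a count of 0 allows up to 67.1 CPM, above the immune-like value. In eRT 1 the tumor cells were at 118% of the immune-like level and in MYC spinal 3 at 97%, and the overall difference was -1.38 (SE 0.422, edgeR adjusted p = 0.0287). That call was lost without any 1 of MYC spinal 1, MYC spinal 2, eRT 2 and eRT 3 (adjusted p from 0.0519 to 0.0904) and without TMM factors (0.0652).

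Tap2 stood at 140, 22.4, 41.7, 85, 27.5 and 18.8 CPM in tumor cells and 194, 34, 47.1, 66.9, 74.3 and 36.6 in immune-like cells. Its difference of -0.75 (SE 0.264) missed the threshold by edgeR (adjusted p = 0.0508) and passed it by DESeq2 (adjusted p = 0.0128).

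Tapbp, which encodes tapasin, had 287, 112, 188, 251, 92.4 and 145 CPM in tumor cells and 387, 60.2, 98, 145, 112 and 99.7 in immune-like cells. Tumor cells were the higher in 4 tumors (MYC spinal 2, MYC spinal 3, eRT 1 and eRT 3) and the lower in MYC spinal 1 and eRT 2. The difference was 0.13 with a 95% interval from -0.43 to 0.69 (edgeR adjusted p = 0.752), and whether it differs from the other genes was not tested.

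Psmb8 and Psmb9 are the inducible catalytic subunits of the immunoproteasome, and both were lower in tumor cells in 6 of 6 tumors. Psmb8 had 702, 89.4, 268, 484, 69.7 and 36.2 CPM in tumor cells against 1437, 219, 462, 621, 524 and 534 in immune-like cells. The tumor cells of eRT 2 and 3 were at 13.3 and 6.77% of their immune-like cells, and the other 4 tumors at 40.8 to 78%. This was the largest of the 10 differences, -1.93 (SE 0.459, edgeR adjusted p = 0.00833). Psmb9 followed at -1.82 (SE 0.476, edgeR adjusted p = 0.0135), with 218, 0, 80.2, 87.1, 14.6 and 11.1 in tumor cells and 343, 98.6, 112, 121, 139 and 92.8 in immune-like cells. Its 0 in MYC spinal 2 again allows up to 67.1.

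The constitutive partners Psmb5, Psmb6 and Psmb7 gave 0 calls among 3 by edgeR (0 with an unadjusted p under 0.05), with a median difference of 0.03. The share of inducible transcripts within each pair was therefore set beside it, as the percentage of the pair's UMIs that belong to the inducible gene. Since 3′ counts may catch 2 genes with unequal efficiency, a share is read between kinds of cell, not as a proportion of proteins. For Psmb8 against Psmb5 the share in tumor cells was 67.8, 21.1, 45.2, 62, 22.9 and 11.6%, and in immune-like cells 87.7, 58.3, 51.9, 61.8, 74.7 and 70.3%. The gap was wide in eRT 3 and eRT 2 and not detectable in eRT 1, where the exact 95% interval of the tumor-cell share ran from 56.8 to 66.9%. For Psmb9 against Psmb6 the tumor-cell share was 28.2, 0, 15.8, 14.5, 5.29 and 1.93% and the immune-like share 51, 34, 16.2, 14.8, 36.8 and 20.1%, lower in tumor cells in 6 of 6 tumors though by under 1 percentage point in MYC spinal 3 and eRT 1.

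Averaged over the 6 tumors, the share was 29.1 percentage points lower in tumor cells for Psmb8 (SD 24.1), 17.8 for Psmb9 (SD 14.7) and 10.4 for Psmb10 against Psmb7 (SD 14.2). In a two-sided exact sign-flip permutation test over the 6 tumors the p-values were 0.0625, 0.0312 and 0.156, or 0.0938, 0.0938 and 0.156 after adjustment over the 3 pairs, and 0.0312 is the smallest that 6 tumors allow. None of the 3 passed after adjustment.

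**Figure D2:**
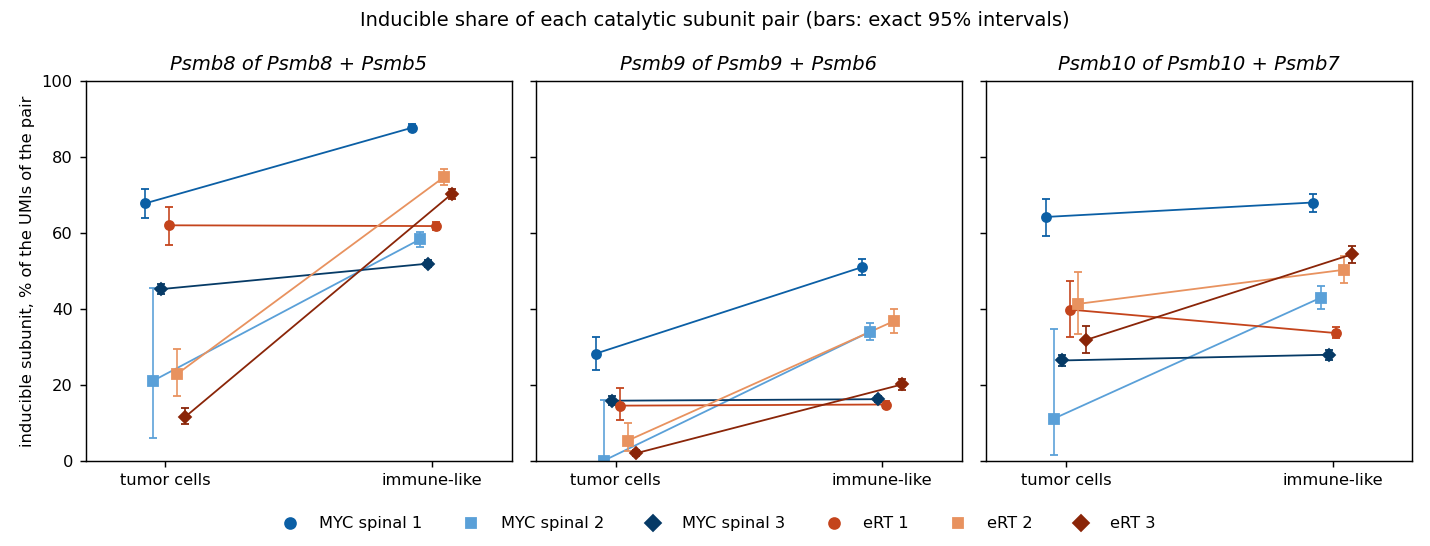
Percentage of the UMIs of each catalytic pair that belong to the inducible subunit (y axis) in tumor and in immune-like cells (x axis), with 1 line per tumor and exact 95% binomial intervals that cover counting error only. For Psmb8 the lines of eRT 3 and eRT 2 are the steepest, rising from 11.6 and 22.9% in tumor cells to 70.3 and 74.7% in immune-like cells, while that of eRT 1 is flat at 62 and 61.8%.

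Psme1 and Psme2 encode the alpha and beta subunits of PA28, the ring that opens the proteasome under interferon-gamma, and neither was called. Psme1 had 498, 67.1, 257, 372, 160 and 160 CPM in tumor cells against 573, 184, 182, 250, 321 and 336 in immune-like cells, and Psme2 847, 268, 290, 493, 177 and 227 against 676, 163, 305, 363, 329 and 285. The groups overlap for both. The differences were -0.61 (95% interval -1.33 to 0.1) for Psme1 and -0.25 (-0.75 to 0.24) for Psme2.

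Set against single cell types rather than the pool, the number of genes called lower in tumor cells ran from 9 to 0. Mature dendritic-like cells, which migrate to lymph nodes to prime T cells, gave the most calls, with 9 of the 10 genes lower in tumor cells against 6.10% of all 10009 tested genes. Psme2, with 268, 290 and 177 in the tumor cells of MYC spinal 2, MYC spinal 3 and eRT 2, reached 1345, 1544 and 2058 CPM there, a log2 difference of -2.26 (SE 0.266, edgeR adjusted p = 2.17e-08), and Psmb8 reached 874, 1333 and 1757 (-2.77, SE 0.377, adjusted p = 5.45e-07). Only 10 to 45 mature dendritic-like cells per tumor underlie this, the median of all genes was itself 0.97 in this contrast, and without eRT 2 the count was 3.

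T-like cells came next with 7 genes lower in tumor cells (13.6% of all genes), then macrophage-like, NK-like and conventional dendritic-like cells with 6 each (18.3, 10.2 and 12.4%) and monocyte-like cells with 5 (19.3%). H2-D1, B2m, Psmb8 and Psmb9 were called against each of these 5 types and against mature dendritic-like cells. Against macrophage-like cells, present in all 6 tumors, H2-K1 differed by -1.01 (SE 0.317, edgeR adjusted p = 0.0094) and Tapbp by 0.01 (95% interval -0.47 to 0.5). That H2-K1 call was lost without MYC spinal 1 or MYC spinal 2 (-0.84 in both, edgeR adjusted p = 0.0586 and 0.0512), and the difference was -1.68 without MYC spinal 3. The B2m call was lost against conventional dendritic-like cells without eRT 1, eRT 3 or MYC spinal 2 (edgeR adjusted p = 0.087, 0.0889 and 0.151) and against NK-like cells without eRT 3 (0.0948). No conventional dendritic-like cells were named in eRT 1 or eRT 3, which enter that fit through their other kinds of cell. Psme1 was called against NK-like cells (-0.79, SE 0.254, edgeR adjusted p = 0.0133) and conventional dendritic-like cells (-1.08, SE 0.307, adjusted p = 0.00725) and missed the threshold against macrophage-like and monocyte-like cells.

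Osteoclast-like, neutrophil-like and granulocyte-monocyte progenitor-like cells gave the fewest calls. Against osteoclast-like cells 0 of the 10 were lower in tumor cells (13% of all genes; 2 of the 10 had an unadjusted p under 0.05, and DESeq2 called 2), and against progenitor-like cells only Psmb8 was (7.08% of all genes; -1.39, SE 0.36, edgeR adjusted p = 0.00488). Tapbp was higher in tumor cells than in either, by 1.11 (SE 0.315, edgeR adjusted p = 0.00575) and 1.24 (SE 0.345, adjusted p = 0.00858), against 15.4% and 9.34% of all genes called higher. In osteoclast-like cells Tapbp stood at 70.2, 105 and 30.2 CPM in MYC spinal 3, eRT 1 and eRT 3, where the tumor cells had 188, 251 and 145. The Tapbp calls were lost without eRT 3 against osteoclast-like cells (0.82, edgeR adjusted p = 0.0701) and without MYC spinal 3 against progenitor-like cells (0.68, adjusted p = 0.349), and the Psmb8 call against progenitor-like cells without MYC spinal 2 (-1.34, adjusted p = 0.0649). H2-D1 and B2m alone were called lower against neutrophil-like cells (18.4% of all genes), with 0 higher (19.9% of all genes). Only MYC spinal 2, MYC spinal 3 and eRT 2 held at least 10 neutrophil-like cells. In CPM, B2m was higher in tumor cells than in neutrophil-like cells in MYC spinal 2 and MYC spinal 3 and lower in eRT 2. H2-D1 was higher in tumor cells in MYC spinal 3 and lower in MYC spinal 2 and eRT 2. Both calls were lost without eRT 2 or MYC spinal 2, and that of B2m also without eRT 1, eRT 3 or MYC spinal 1. Without TMM factors the contrast gave 0 lower and 4 higher calls as the median of all genes moved from 0.23 to 1.05. The 9 contrasts share the same tumor-cell sums and 1 estimate of the spread, and 5 of the types reached 10 cells in only 3 tumors. All come from 1 fit, so that leaving out a tumor with few or no cells of a type can move its contrast too. Conventional dendritic-like and progenitor-like cells were named in MYC spinal tumors only, so those contrasts hold no eRT cells of the type. An eRT cluster of 447 cells with Clec10a and Mgl2 among its top genes, as in the conventional dendritic-like cluster, stayed unnamed.

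**Figure D3:**
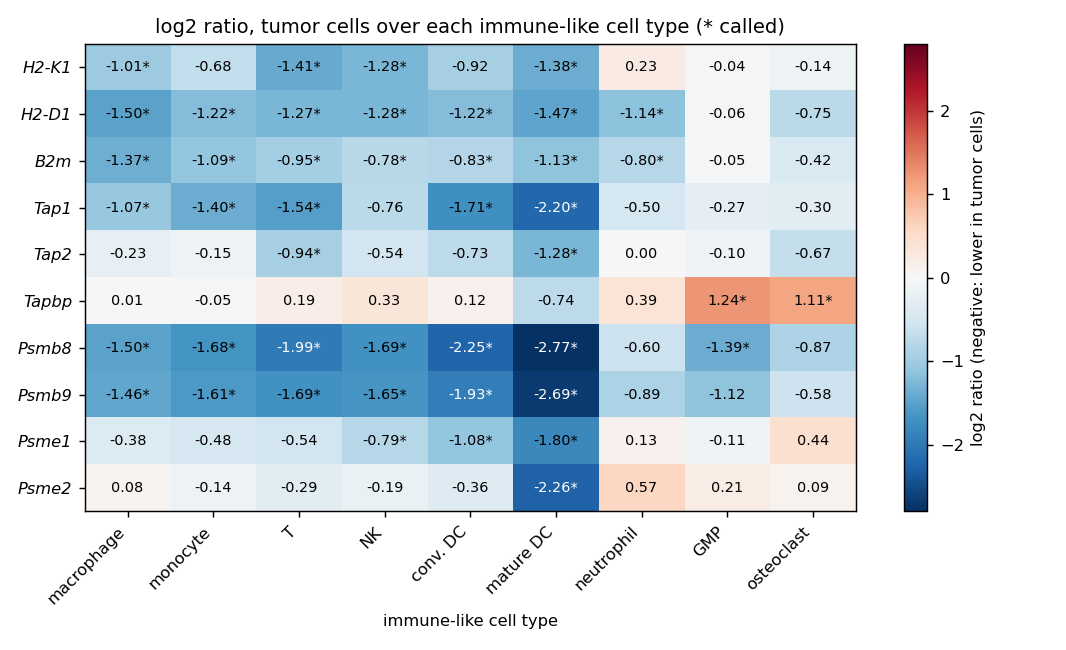
Log2 ratio of tumor cells over each of 9 immune-like cell types (columns) for each gene (rows), with asterisks where edgeR's adjusted p was under 0.05 over all genes. The darkest entry, -2.77, is in the column of mature dendritic-like cells, which runs to -1.13 with the exception of Tapbp at -0.74. B2m and H2-D1 are darker against macrophage-like cells (-1.37 and -1.5), and H2-K1 against T-like cells (-1.41). The Tapbp entries against GMP (granulocyte-monocyte progenitor) and osteoclast-like cells are the only asterisks above 0.

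The immune-like pools differed in makeup. The pool of MYC spinal 3 was largely osteoclast-like (1509 of 3689 cells) and macrophage-like (1240), and that of eRT 1 held 712 osteoclast-like cells of 1563. In the tumor cells of MYC spinal 3, H2-K1 stood at 1258 CPM (exact 95% Poisson interval 1234 to 1282). That lay above 8 of the 9 named immune-like types with at least 10 cells, among them macrophage-like cells (821) and T-like cells (983). It lay below mature dendritic-like cells at 1473. For H2-D1 and for B2m the tumor cells lay above 5 of the 9. In MYC spinal 1, eRT 2 and eRT 3, H2-K1, H2-D1 and B2m in tumor cells lay below every such type (7, 6 and 5 types). Types with fewer cells were not ranked.

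**Figure D4:**
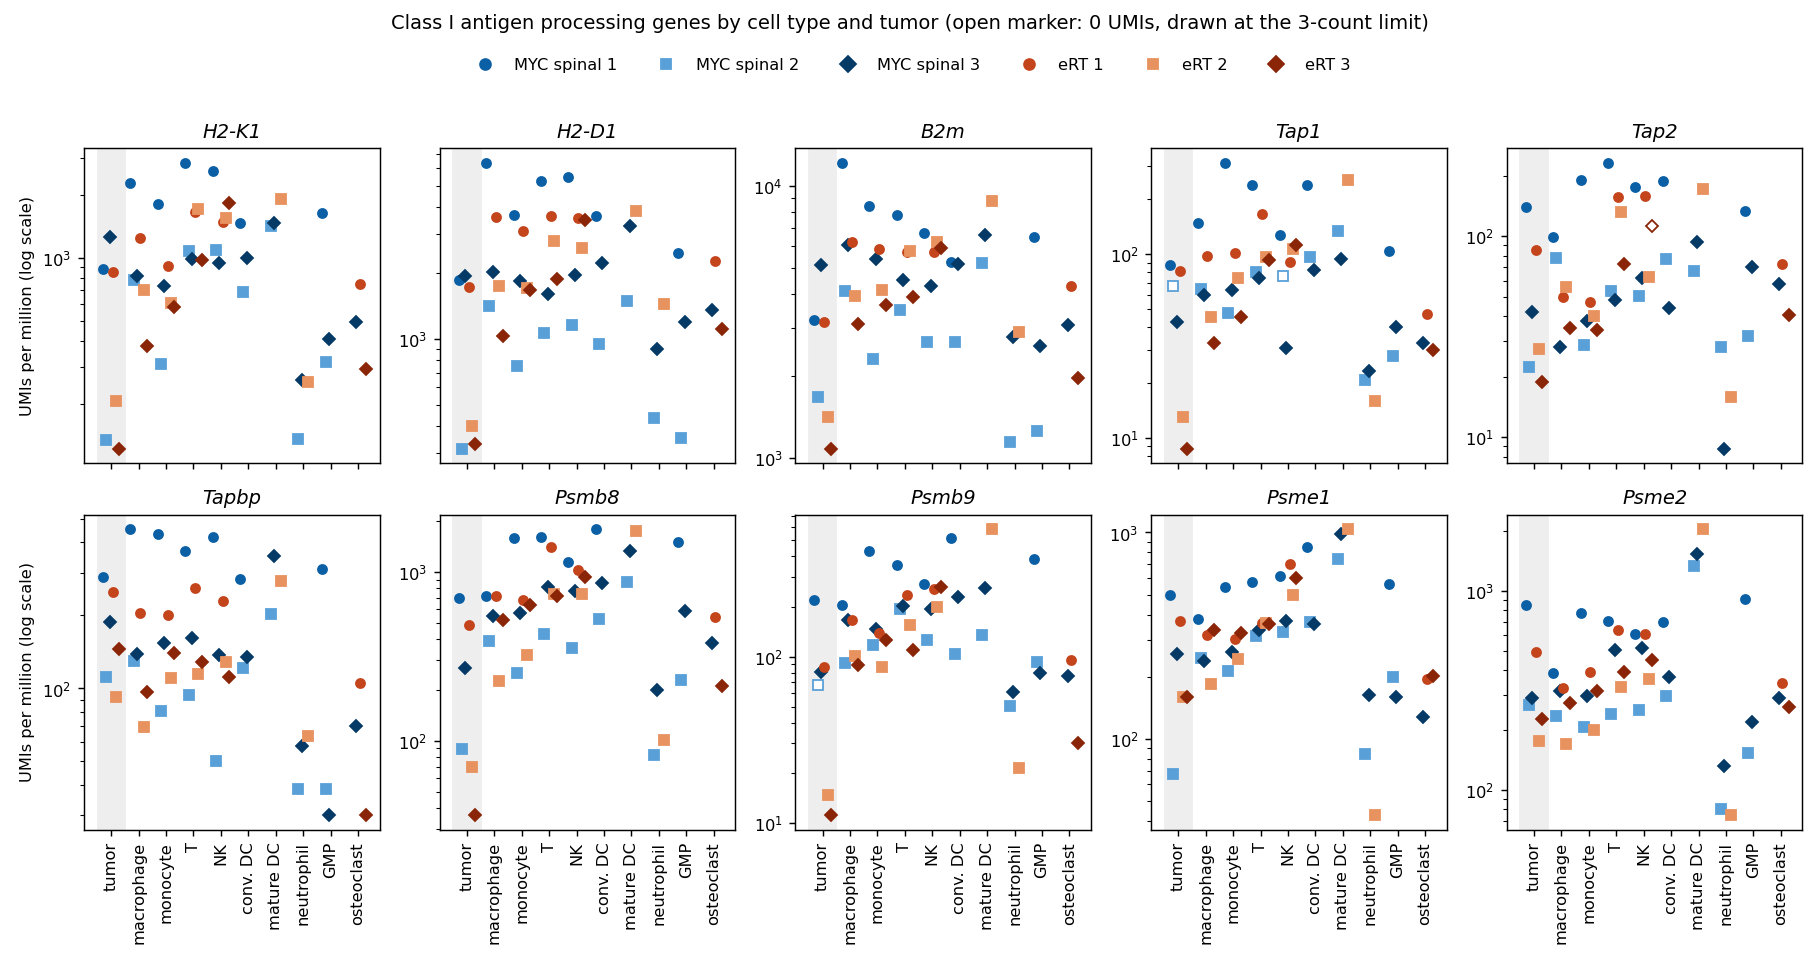
CPM (log y axis) of each gene in tumor cells (shaded) and 9 immune-like cell types (x axis), with 1 point per tumor and open markers at the limit a count of 0 allows. MYC spinal 1 is the highest point for H2-K1 in each immune-like type where it is drawn, and the tumor-cell values of Psmb8 spread over 19.4 times, from 36.2 to 702.

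The tumors were also far apart from each other. In tumor cells H2-K1 ranged 10.4-fold (121 in eRT 3 to 1258 in MYC spinal 3), B2m 4.73-fold, Psmb8 19.4-fold (36.2 in eRT 3 to 702 in MYC spinal 1) and Tapbp 3.1-fold. In macrophage-like cells the same genes ranged 6.07-, 3.92-, 3.18- and 6.58-fold, with MYC spinal 1 the highest for H2-K1 (2286), B2m (12130) and Tapbp (455). The order of tumor-cell levels put MYC spinal 3, MYC spinal 1 and eRT 1 above eRT 2, MYC spinal 2 and eRT 3 for H2-K1, and the exact counting intervals of MYC spinal 1 (808 to 966) and eRT 1 (770 to 939) overlap, as do those of MYC spinal 2 (49.2 to 292) with eRT 2 and eRT 3.

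Between the tumor types nothing passed. Tumor cells of eRT against MYC spinal gave 0 of the 10 genes called (0% of 5599 tested genes called, with 188 at an unadjusted p under 0.05 and 0 of those among the 10; DESeq2 called 0 of the 10). The H2-K1 difference was -0.82 with a 95% interval from -2.84 to 1.2, that of B2m -0.6 (-2.01 to 0.8) and that of Psmb8 -0.7 (-2.85 to 1.45). In macrophage-like cells 0 of 10 were called (0% of 6347 genes, 86 at an unadjusted p under 0.05, 0 of the 10 among them, and 0 of the 10 by DESeq2), with H2-K1 at -0.74 (-2.15 to 0.67). The gap between tumor and immune-like cells was tested for a difference between the tumor types as an interaction, and gave 0 of 10 (0% of 12201 genes, 296 at an unadjusted p under 0.05, 0 of the 10 among them, and 0 of the 10 by DESeq2). For Psmb8 that interaction was -1.16 (-3.04 to 0.73).

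Within single tumors, clusters of tumor cells differed as well. The eRT cluster led by Prg4, Epcam, Cldn4, Cldn3 and Cldn7, which are genes of epithelial cells apart from the lubricin gene Prg4, held 41 of the 69 tumor cells of eRT 1, and there H2-K1 stood at 1200 CPM, B2m at 3599 and Psmb8 at 685. The 18 cells of eRT 1 in the cluster led by Tlx2 and Gchfr had 343, 2465 and 141, and the 10 cells in the cluster led by Ctla2a and Npy had 144, 2474 and 288. In eRT 2, where 10 cells fell in the Epcam cluster, they had 280, 2074 and 63.6, beside 181, 1140 and 126 in the Tlx2 cluster (44 cells) and 208, 1485 and 21.1 in the Ctla2a cluster (146 cells). In eRT 3 the Tlx2 cluster (482 cells) and the Ctla2a cluster (136 cells) gave 124 and 110 for H2-K1.

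MYC spinal 3 held 3 tumor-cell clusters. H2-K1 was 1341 CPM in the largest (1377 cells, led by Id3 and Angptl7), 1174 in the next (244 cells, led by Crabp1 and S100a6) and 401 in the smallest, led by the neuronal genes Bex1 and Stmn2 (97 cells). Psmb8 followed the same order at 295, 179 and 47.1. B2m was highest in the Crabp1 cluster, 8192 against 5105 and 2270, and the immune gene Tyrobp was highest there too (746 against 183 and 197). These are cells of 1 animal, so the clusters were not tested against each other. Without the Epcam cluster, a choice made after seeing the data, the fit took the pooled count from 6 to 7, since Tap2 was then called (-1.12, edgeR adjusted p = 0.0139), and Tapbp changed sign to -0.09.

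**Figure D5:**
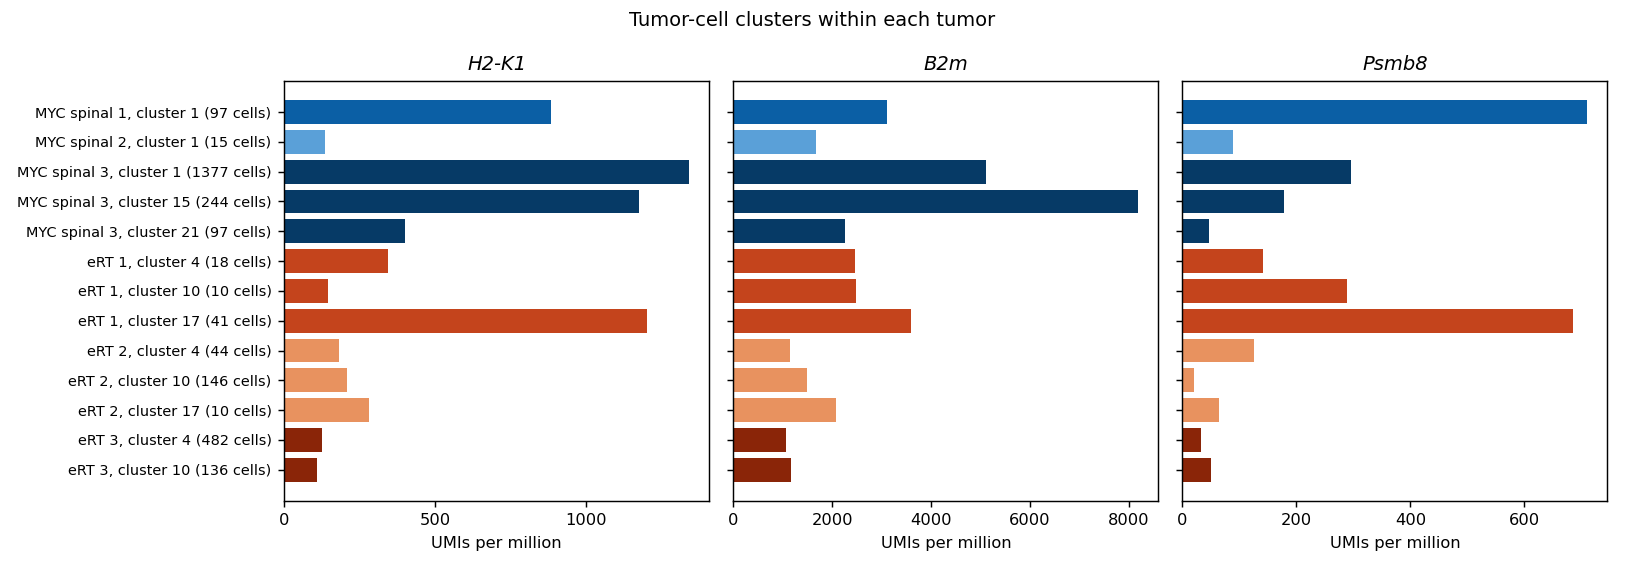
CPM of H2-K1, B2m and Psmb8 (x axes) in each cluster of tumor cells with at least 10 cells, by tumor (y axis, colours as the tumors, with the number of cells). Cluster 17 of eRT 1 reaches 1200 for H2-K1 where clusters 4 and 10 of the same tumor stand at 343 and 144, and cluster 21 of MYC spinal 3 stands at 401 where cluster 1 stands at 1341.

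Tumor cells carried more UMIs than immune-like cells in every tumor (a median of 5396 against 1934 in MYC spinal 1), so the share of cells with a transcript was taken after thinning each cell to 1000 UMIs. H2-K1 was then found in 45.5, 7.69, 64, 42, 16.8 and 10.3% of tumor cells and in 91.3, 22.7, 45.7, 56.6, 56.9 and 34.1% of immune-like cells. Unthinned, the first tumor gave 78.6% of tumor cells and 98.2% of immune-like cells. B2m was found in 89.1, 84.6, 97, 87, 57 and 60.1% of tumor cells and in 73.6 to 99.5% of immune-like cells. Tyrobp, a myeloid and NK gene that tumor cells should lack, was found in 1.98, 7.69, 15.7, 21.7, 8.38 and 10% of the thinned tumor cells, and the H2-K1 shares of MYC spinal 2 and eRT 3 did not differ from these beyond counting error. In the immune-like cells of those 2 tumors Tyrobp was found in 71.5 and 93.1%. Over all UMIs, H2-K1 in their tumor cells stood at 39.3 and 28.9% of the immune-like level, where the summed general immune markers stood at 12.3 and 3.58%. Of thinned tumor cells, 20.7% in eRT 2 and 15.7% in eRT 3 had none of the 10 genes, against 0 to 7.69% in the other 4, and 1.31 and 0.852% of the immune-like cells of eRT 2 and eRT 3. Thinning left out 2 tumor cells in each of MYC spinal 1 and MYC spinal 2 and 21 in eRT 2. Of immune-like cells it left out 80 in MYC spinal 1, 2939 of 5420 in MYC spinal 2, 426 of 1643 in eRT 2 and 27 in eRT 3.

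Genes around the pathway, from lists taken by name, were counted in the comparison of tumor with pooled immune-like cells, where 16.8% of all genes were lower and 15.4% higher. Of 9 interferon receptor and kinase genes 4 were lower, all of them receptor chains. Ifngr1, which binds interferon-gamma, had 26.5 to 136 CPM in tumor cells and 98.5 to 933 in immune-like cells (-2.46, SE 0.37, edgeR adjusted p = 0.000521). Ifngr2, Ifnar1 and Ifnar2 differed by -1.53 to -1.59. Of 12 class I regulators 4 were lower, among them Nfkb1 (-1.64), Irf2 (-1.38) and Nfya (-1.31). Of 20 interferon response genes tested, 4 were lower and 4 higher. Ifit1, an antiviral RNA-binding protein, was among the higher (1.94, SE 0.282, edgeR adjusted p = 0.000419), at 827, 0, 210, 537, 230 and 65 in tumor cells against 254, 1.46, 30.1, 99.7, 90.3 and 11.2, and Iigp1 was too (2.81, SE 0.481, adjusted p = 0.00163), while the guanylate-binding protein gene Gbp4 was at 0 to 28.7 in tumor cells and 1.78 to 82.1 in immune-like cells and was called lower. The 14 other loading genes, the chaperones Calr, Pdia3 and Hspa5 among them, gave 0 calls by edgeR (3 at an unadjusted p under 0.05, median -0.51), and DESeq2 was not run on that list. Of 11 other class I heavy chains tested, 3 were lower (H2-M2, H2-T24 and Cd1d1) and Mr1 was higher, all at low levels. The 7 MHC class II genes were all lower (median -4.5), as Cd74 shows with 22.4 to 1226 CPM in tumor cells and 1039 to 42006 in immune-like cells.

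Across the 49 sums of 1 cell type in 1 tumor, each of the 10 genes was compared with the mean of the other 9 on the log2(CPM + 10) scale. Pearson's r was highest for Psmb8 (0.94) and H2-K1 (0.93) and lowest for Tap2 (0.71) and Tapbp (0.72). Outside all lists, the genes most like the mean of the 10 among 7437 candidates were Epsti1 (r = 0.85), Apobec3 (0.8), Sh3bp1 (0.77), Il2rg (0.76) and Phf11b (0.75). The sums share tumors and libraries, and these values describe them only.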

How the data were processed

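Gene-by-cell UMI counts of 6 tumors (10x 3′ libraries) were deposited by the authors as raw counts, made, per the labels, with Cell Ranger 2.0.2 against mm10. A cell had to show 200 genes and no more than 25% mitochondrial transcripts. The cells were clustered by tumor type in Seurat 5.3.0 (anchors between tumors, 2000 variable genes, 30 dimensions, 20 neighbors, resolution 0.8) without the class I genes. A cluster was named from at least 3 markers found in at least 10% of its cells with a log2 fold of at least 1. Clusters of low Smarcb1 (at least 10 UMIs expected) were tumor cells. Scrublet called 21 of 22163 cells, too few to have worked, so an alternative removed the 843 highest scores. Numbered cell names hold no barcode sequences, so shared barcodes were not counted.

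UMI counts were summed per tumor and kind of cell (at least 10 cells) and tested with edgeR 4.0.16 (quasi-likelihood, TMM, filterByExpr, Benjamini-Hochberg at 0.05), with the tumor as a block where kinds were compared, since those sums come from the same animal. Same-numbered tumors of the 2 types are unrelated animals. Intervals are 95%, from a t distribution for fits and exact for counts and shares. Levels are counts per 1000000 UMIs of that kind of cell (CPM), which is not a level per cell. The floor of a count of 0 is 3 UMIs. Counting intervals cover counting error only. DESeq2 1.42.0 was an alternative. The code was tested on simulated counts. The genes and lists were chosen with earlier results of these data known. The rule for other named genes took up to 4 per list, by the largest called difference or else the level in tumor cells, and the 5 most alike of at least 10 CPM. Neighboring lists not described gene by gene were general immune markers (10 of 10 lower in tumor cells). A cell type was tested where at least 3 tumors held it. A result on a listed gene is not reported here.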

Additional observations from a re-analysis of the deposited data

How the results depend on the processing

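The 6 calls against pooled immune-like cells numbered 4 to 7 under the other normalization, filter, clustering, Smarcb1 and doublet settings, and 6 and 7 without the interferon-led immune clusters or the Epcam cluster, both chosen after seeing the data. Without the replicate block (the tumor), 0 were called in the pool, 0 lower and 0 higher against progenitor-like cells, 2 against macrophage-like, 5 against mature dendritic-like, 0 against neutrophil-like, 2 against NK-like and 4 against T-like cells, and 0 higher against osteoclast-like cells. Leaving out 1 tumor gave 3 (without eRT 3) to 7 calls in the pool, 3 to 9 against mature dendritic-like cells, 0 to 2 against progenitor-like and against neutrophil-like cells and 0 to 1 against osteoclast-like cells, with 0 to 1 higher in each of the last 3. Neutrophil-like counts were 1 with at least 30 cells (1 higher), 1 without the filter, and 0 (4 higher) without TMM factors, where B2m stood at 0.02. Osteoclast-like counts were 2 by DESeq2 and 2 without the filter. Dropping TMM factors moved the median of all genes in the pool from -0.03 to 0.21 and Psme2 to 0.02. Without the Epcam cluster, in tumor cells against the immune-like pool, Tapbp stood at -0.09. Tapbp ran from -0.02 to 0.32 as 1 tumor was left out. With the mouse model as a covariate the eRT difference in tumor cells became 0.17 for H2-K1, 0.38 for H2-D1, 0.57 for Psmb8 and 0.75 for Tap1. Leaving out 1 tumor, the Psmb8 difference ran from -2.19 to 0.03. In macrophage-like cells it ran from -0.44 to 0.21 for Psmb8, -1.12 to 0.09 for H2-K1, -1.09 to 0.42 for H2-D1 and -1.13 to 0.04 for Tap1, and the interaction from -1.19 to 0.47 for H2-K1, -1.08 to 0.06 for H2-D1 and -1.28 to 0.38 for Tap1. None of these differences between tumor types was called under any setting, and the cause was not tested. The 15 tumor cells of MYC spinal 2 limit what its low genes can show.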

Other observations

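Cell types without a contrast of their own also carried class I transcripts. Of these, plasmacytoid dendritic-like and B-like cells were part of the immune-like pool, and fibroblast-like cells were not. Plasmacytoid dendritic-like cells, which reached 10 cells in MYC spinal 2 alone (183 cells), had 586 CPM of H2-K1, 2630 of B2m and 94.8 of Tap1 there. B-like cells of MYC spinal 1 and 2 had 1985 and 731 of H2-K1 and 1404 and 224 of Psmb8. The fibroblast-like cells of eRT 3 (78 cells) had 98.9 CPM of H2-K1, 820 of B2m, 33 of Psmb8 and 0 of Psmb9, beside 121, 1080, 36.2 and 11.1 in the tumor cells of the same animal. Their cluster held 0.364 of the expected Smarcb1, and with the Smarcb1 limit at 0.5 it counted as tumor cells. Whether these are host or tumor cells was not tested.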
